A study of Yucca flaccida with 12 samples.

Results

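The 12 genes described here had their highest transcript level at the edge of variegated leaves of Yucca flaccida 'Golden Sword', an ornamental monocot. They were chosen from 185746 genes, each a cluster of assembled transcripts, by their levels in CPM, counts scaled to the total of the library. The lowest of the 3 variegated-edge libraries had to reach at least 2 CPM and at least 2 times the highest of the other 9 libraries, with more than 3 counts over the 6 unvariegated libraries. Genes raised in both zones of variegated leaves and the 150 most abundant genes were to be left out, and these last 2 steps, like the minimum of unvariegated counts, removed 0 genes.

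Polyadenylated RNA had been sequenced from untreated plants kept in vitro, from the second youngest leaf, all of the same genotype. The 4 groups, each of 3 libraries, were the variegated edge (VE), the variegated centre (VC), the unvariegated edge (UE) and the unvariegated centre (UC). Total counts lay between 13139086 and 20306020 per library. Neither the pale zone nor the origin of replicate libraries from different plants is stated in the labels. The p-values therefore cover the variation among these libraries alone, part of which may be technical.

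In variegated plants, cells with green plastids lie beside cells whose plastids lack chlorophyll, and in many horticultural forms the pattern is kept because the cell layers of the shoot tip differ in genotype. The margin and the interior of a leaf can then descend from different layers. 'Golden Sword' is grown for leaves with a yellow centre and green margins. The identifiers were used without gene names or sequences, so no function is given for any gene, and genes are described by level, length and neighbouring identifiers. In whole tissue pieces, more cells of a type and more RNA per cell cannot be told apart.

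Few genes stood out in a single group, and the number depended on scaling. By the level criteria alone, VE was the highest group for 12 genes, VC for 65, UE for 2 and UC for 4. With TMM scaling, which corrects for a few abundant transcripts taking up much of a library, the numbers became 22 for VE, 46 for VC, 3 for UE and 3 for UC. The TMM factors were 0.807, 0.836 and 0.878 in VE1, VE2 and VE3 and between 0.958 and 1.16 in the other libraries, so TMM scaling gives higher VE levels relative to the other groups than library totals do. Without any fold, 461 genes of at least 2 CPM had all VE libraries at or above the other 9 on library totals and 1384 with TMM scaling. For VC the same count was 2496 on library totals and 1182 with TMM scaling, so the order of the 2 groups turned round.

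**Figure D1:**
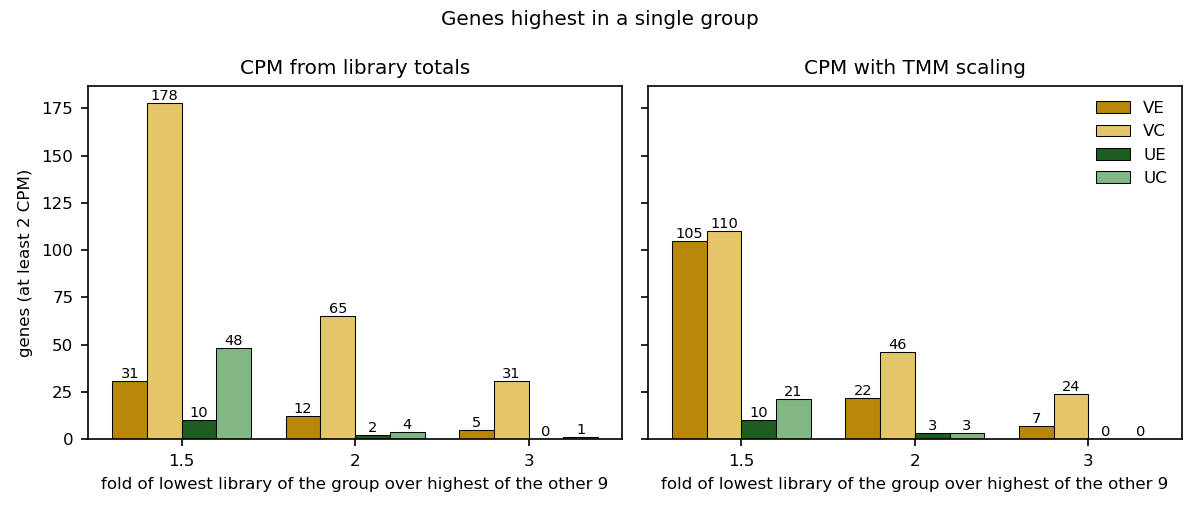
Bars give the number of genes (y axis) whose lowest library in a group was at least 1.5, 2 or 3 times the highest of the other 9 libraries (x axis) and at least 2 CPM, with library totals on the left and TMM scaling on the right. At 2 times, VE had 12 genes against 65 for VC on library totals, and 22 against 46 with TMM scaling.

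Together the 12 genes were a small part of the RNA. Their summed level was 406 ± 29 CPM over the VE libraries (SD, n = 3 in each group), against 83.5 ± 17 CPM over VC, 52.8 ± 9.15 CPM over UE and 55.8 ± 5.93 CPM over UC. Cluster-20123.24062 supplied between 48.5% and 62.5% of this sum in the VE libraries. Without it the sums were 181 ± 34.8 CPM for VE (SD, n = 3 in each group), against 31.4 ± 10.3 CPM for VC, 28.8 ± 5.48 CPM for UE and 28.9 ± 2.8 CPM for UC. These levels are set by the choice of genes and are given as a description. Per gene, the mean in VE was 4.3 to 17.8 times the mean of the other 9 libraries, with a median of 5.97 times.

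**Figure D2:**
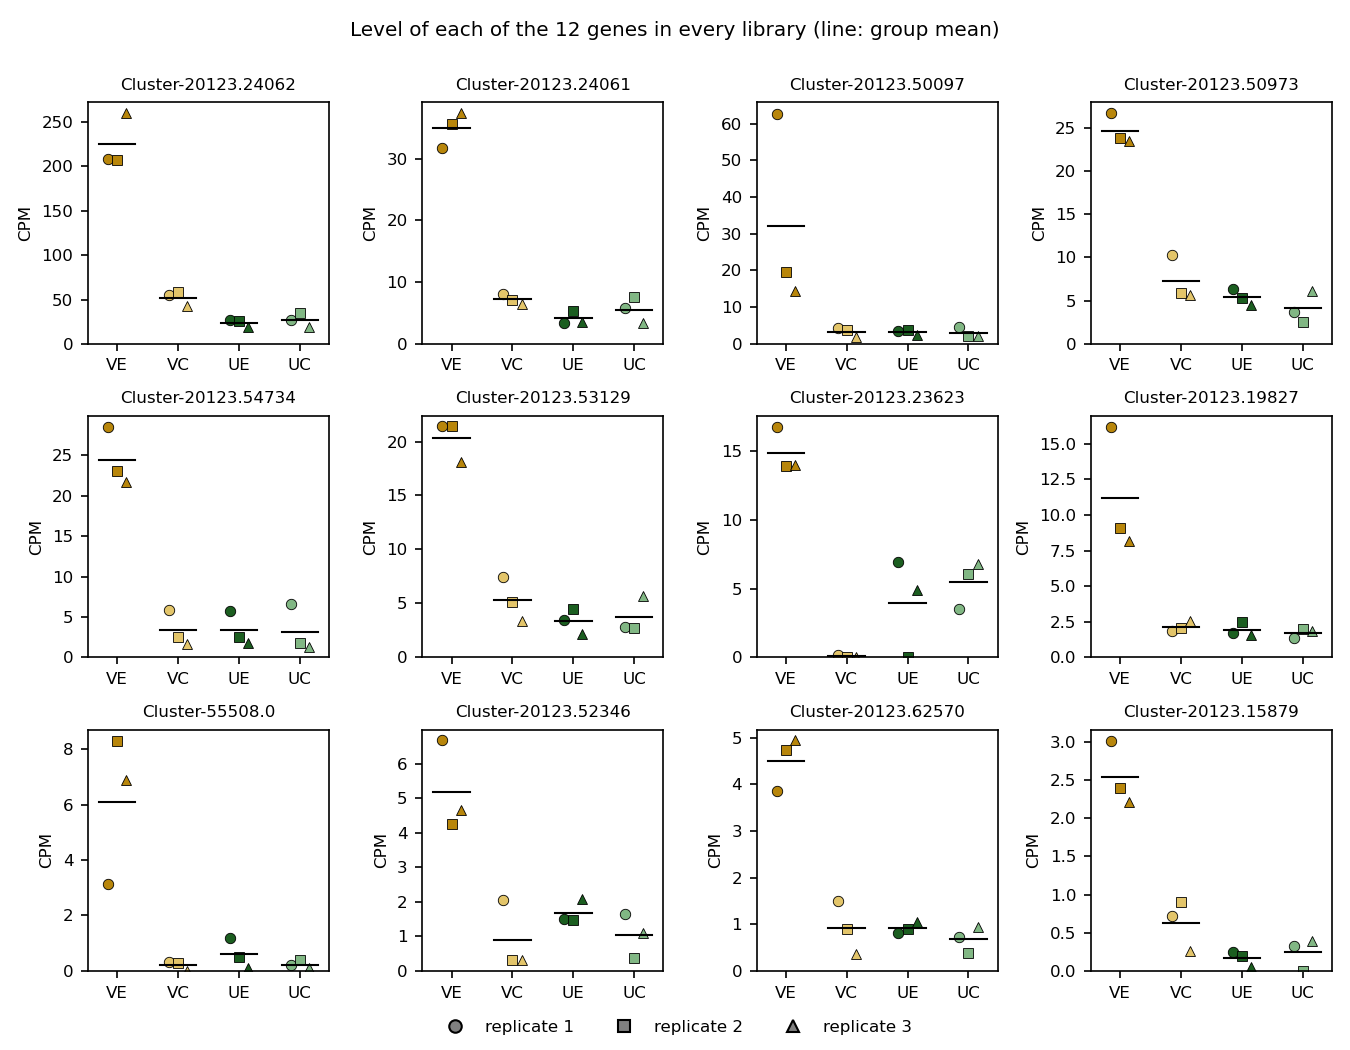
Each panel shows 1 gene, with its level in CPM (y axis, from 0) in the 3 libraries of VE, VC, UE and UC (x axis); marker shapes give the replicate number and lines the group mean. In every panel the 3 VE libraries lie above the other 9, by as little as 2.01 times in Cluster-20123.23623 and as much as 3.93 times in Cluster-20123.24061, and the other 3 groups mostly overlap.

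The gene with the most counts and its neighbour by identifier had the widest gaps to the other libraries. Cluster-20123.24062 had 208, 207 and 260 CPM in VE, 55.6, 58.4 and 42.2 CPM in VC, 26.9, 26 and 19.2 CPM in UE, and 26.7, 34.4 and 19.5 CPM in UC. All VC libraries also lay above all UE and UC libraries, which overlapped with each other. Cluster-20123.24061 had 31.7, 35.7 and 37.4 CPM in VE, 8.08, 7.1 and 6.48 CPM in VC, 3.4, 5.36 and 3.63 CPM in UE, and 5.83, 7.53 and 3.35 CPM in UC. Here VC and UC overlapped, since UC2 exceeded VC2 and VC3. The ratio of the first gene's CPM to the second's was 5.81 to 6.96 in VE and 4.57 to 8.22 in the other 9 libraries. All counts of both genes were whole numbers in all 12 libraries; RSEM, the counting tool named by the submitters, gives fractions where it divides reads between genes. Per length, Cluster-20123.24062 averaged 279 ± 38.4 FPKM (fragments scaled to length and library depth) in VE and Cluster-20123.24061 averaged 56.5 ± 4.93 FPKM (SD, n = 3). Cluster-20123.24063 and Cluster-20123.24065, which also lie within 5 identifiers and reach 1 CPM on average, did not stand out in VE: their highest VE libraries had 1.62 and 2.56 CPM, against 3.04 CPM in UC2 and 4.25 CPM in UE3.

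A second set of 4 genes had VE means of 20.3 to 32.2 CPM and overlapping levels in the other 3 groups. Cluster-20123.50097 had 62.7, 19.5 and 14.4 CPM in VE, 4.43, 3.72 and 1.91 CPM in VC, 3.46, 3.81 and 2.37 CPM in UE, and 4.57, 2.05 and 2.07 CPM in UC. VE1 alone was 4.34 times VE3, the widest spread within VE among the 12 genes. Without VE1 the VE mean of this gene was 17 CPM, 5.38 times the mean of the other 9 libraries, instead of 32.2 CPM and 10.2 times. Cluster-20123.50973 had 26.7, 23.8 and 23.5 CPM in VE, 10.3, 5.86 and 5.63 CPM in VC, 6.36, 5.29 and 4.52 CPM in UE, and 3.71, 2.59 and 6.06 CPM in UC. Its VE libraries were within 1.14 times of each other, the narrowest spread of the set, and VC1 was the highest library outside VE. Cluster-20123.53129 had 21.4, 21.4 and 18.1 CPM in VE, 7.49, 5.1 and 3.35 CPM in VC, 3.46, 4.52 and 2.15 CPM in UE, and 2.85, 2.74 and 5.71 CPM in UC, with VC1 again the highest outside VE.

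In Cluster-20123.54734 the first replicate was the highest in every group. It had 28.5, 23 and 21.7 CPM in VE, 5.86, 2.55 and 1.7 CPM in VC, 5.8, 2.58 and 1.82 CPM in UE, and 6.56, 1.75 and 1.23 CPM in UC. Outside VE, the replicate number thus went with a larger difference than the group did. This gene was also the shortest, with an effective length of 9.25 bases, meaning the stretch in which a sequenced fragment can start. Its FPKM were correspondingly high, with means of 2694 ± 259 for VE, against 361 ± 243 for VC, 372 ± 228 for UE and 181 ± 149 for UC (SD, n = 3 per group), and should not be read as abundance beside those of longer genes.

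Cluster-20123.23623 was nearly missing from the variegated centre, while most unvariegated libraries held several CPM of it. It had 16.7, 13.9 and 14 CPM in VE, 0.184, 0 and 0.0468 CPM in VC, 6.95, 0 and 4.91 CPM in UE, and 3.49, 6.07 and 6.77 CPM in UC. The VE libraries together held 778 counts and the VC libraries 4 after rounding, a ratio of 181 once divided by library totals, with a 95% exact binomial counting interval of 70.5 to 667. In UE2 no count was found, which allows up to 0.194 CPM at a floor of 3 counts; such intervals and floors cover counting error only. With a ratio of 2.01 between VE2 and UE1 it met the fold criterion by the least of the 12.

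The adjacent identifier, Cluster-20123.23622, is given beside it. Of its 12 counts, the 10 above 0 were not whole numbers, and the same held for 10 of the 12 counts of Cluster-20123.23622, as can arise where reads match more than one gene. Cluster-20123.23622 had 17.2, 23.1 and 29.5 CPM in VE, 0.728, 0.827 and 1.33 CPM in VC, 24.3, 93.2 and 26.4 CPM in UE, and 24.8, 24.4 and 27.8 CPM in UC. The library without Cluster-20123.23623, UE2, was thus the highest for its neighbour, whereas within VE the library highest for the first gene, VE1, was the lowest for the second. Summed, the pair had 33.9, 37.1 and 43.5 CPM in VE, 0.912, 0.827 and 1.38 CPM in VC, 31.2, 93.2 and 31.3 CPM in UE, and 28.3, 30.5 and 34.6 CPM in UC. The lowest VE library was then 0.364 times the highest of the other 9, and VE overlapped with UE and UC while VC stayed near 0. Whether reads were shared between the 2 genes was not tested.

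**Figure D3:**
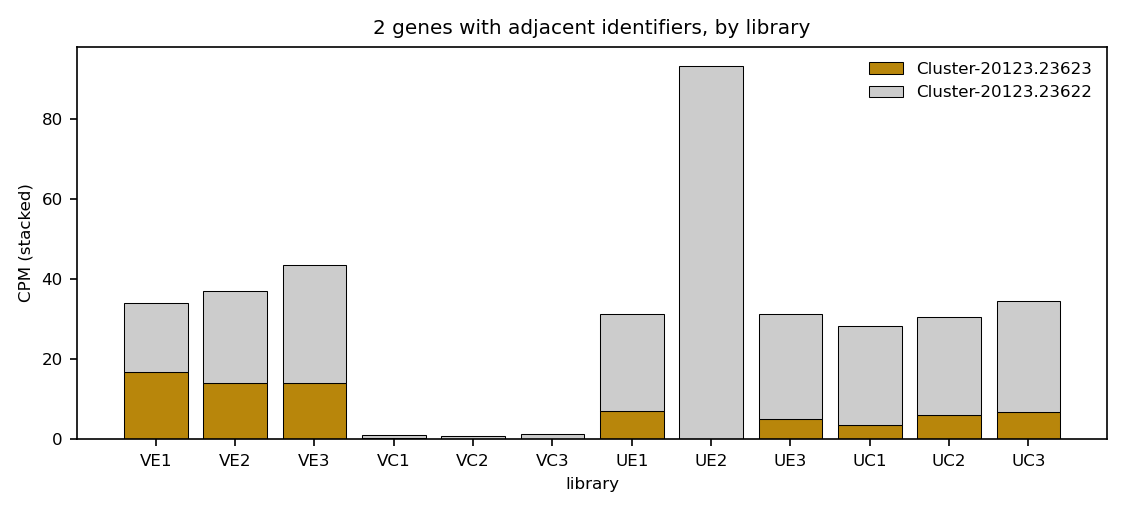
Stacked bars give the CPM (y axis) of Cluster-20123.23623 and of the adjacent identifier Cluster-20123.23622 in each of the 12 libraries (x axis). The first gene is highest in VE, at 13.9 to 16.7 CPM, but the sum of both is 33.9 to 43.5 CPM in VE and 28.3 to 34.6 CPM in UC, 93.2 CPM in UE2, and at most 1.38 CPM in VC.

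Cluster-20123.19827 lay in a run of identifiers in which several genes were higher at the variegated edge. It had 16.2, 9.1 and 8.16 CPM in VE, 1.83, 2.08 and 2.53 CPM in VC, 1.72, 2.49 and 1.59 CPM in UE, and 1.38, 1.96 and 1.82 CPM in UC. VE1 was 1.98 times VE3, and the other 3 groups overlapped. The 5 other identifiers within 5 of it at a mean of at least 1 CPM had, like it, counts that were not whole, in 5 to 12 of 12 libraries. Each of the 6 genes had a VE mean between 4.15 and 7.42 times its VC mean, but against UE the ratio of means ran from 0.889 in Cluster-20123.19828 to 5.76 in Cluster-20123.19827. The 6 genes together had 88.4 ± 21.3 CPM over VE (SD, n = 3 in each group), against 16 ± 2.13 CPM over VC, 53.1 ± 7.82 CPM over UE and 47.3 ± 8.85 CPM over UC. The lowest VE library of this sum was 1.14 times the highest of the other 9, against 3.22 times for Cluster-20123.19827 alone. The run was singled out after its values were seen.

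The remaining 4 genes had VE means between 2.54 and 6.1 CPM, and rested on 133 to 316 counts over the 3 VE libraries. Cluster-55508.0 had 3.13, 8.29 and 6.87 CPM in VE, 0.326, 0.276 and 0 CPM in VC, 1.17, 0.517 and 0.11 CPM in UE, and 0.199, 0.381 and 0.0985 CPM in UC. It was the only 1 of the 12 from outside the assembly group of the other members, which held 103846 genes, and its own group held 2. Its pooled VE to VC ratio was 32.7, from 316 and 9 counts (95% counting interval 17 to 72.3), and its VE to UC ratio 29.4, from 316 and 10 counts (15.8 to 61.8).

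Cluster-20123.52346 had 6.67, 4.24 and 4.65 CPM in VE, 2.04, 0.324 and 0.318 CPM in VC, 1.5, 1.47 and 2.08 CPM in UE, and 1.66, 0.375 and 1.1 CPM in UC. None of its 12 counts was whole, and it was the longest of the set, with an effective length of 1990 bases. Adjacent Cluster-20123.52347 had 10 counts not whole. Summed, the pair averaged 11.4 CPM in VE, 2.69 CPM in VC, 13.3 CPM in UE and 3.8 CPM in UC. The lowest VE library of this sum was 0.544 times the highest of the other 9. With other neighbours within 5 identifiers, some far more abundant, this ratio was 0.388 to 0.91. Whether reads were shared was not tested. Cluster-20123.62570 had 3.85, 4.73 and 4.95 CPM in VE, 1.5, 0.896 and 0.372 CPM in VC, 0.803, 0.904 and 1.05 CPM in UE, and 0.729, 0.381 and 0.936 CPM in UC. Its effective length was 61.4 bases, and its levels outside VE overlapped among the 3 groups. Cluster-20123.15879 had 3.01, 2.39 and 2.21 CPM in VE, 0.716, 0.896 and 0.266 CPM in VC, 0.247, 0.194 and 0.0551 CPM in UE, and 0.332, 0 and 0.394 CPM in UC. From 133 counts in VE against 8 in UE and 13 in UC, its pooled ratios were 15.9 over UE (95% counting interval 7.83 to 37.5) and 9.51 over UC (5.37 to 18.3). VC1 and VC2 lay above all UE and UC libraries for this gene and VC3 did not.

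At the limit of 2 times, the members just inside were Cluster-20123.23623, Cluster-20123.52346 and Cluster-20123.50973, with ratios of lowest VE to highest other library of 2.01, 2.04 and 2.29. Just outside were Cluster-20123.19829, Cluster-20123.58940 and Cluster-20123.15395, with 1.96, 1.95 and 1.91. Cluster-20123.58940 averaged 72.8 ± 10.5 CPM for VE, against 31 ± 2.6 CPM for VC, 24.3 ± 8.01 CPM for UE and 22.8 ± 6.41 CPM for UC (SD, n = 3 per group). Cluster-20123.15395 averaged 33.9 ± 3.62 CPM for VE, against 14.3 ± 2.79 CPM for VC, 6.2 ± 2.22 CPM for UE and 5.05 ± 1.53 CPM for UC (SD, n = 3 per group).

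All 12 genes were abundant enough for the test across all genes, edgeR's quasi-likelihood test on 59225 genes with TMM scaling and Benjamini-Hochberg adjustment. Since the choice of genes used VE against every other group, calls in contrasts with VE are a description. In VE against VC, 9 of the 12 had an adjusted p below 0.05, beside 0.571% of all genes called higher and 0.383% lower. In VE against UE, 10 of the 12 did, beside 3.33% of all genes higher and 1.94% lower. The difference of the zone differences, VE minus VC against UE minus UC, was called for 2, Cluster-20123.24062 and Cluster-20123.24061, beside 0.0608% of all genes higher and 0.0355% lower. With library totals as the only scaling, the calls over all genes in VE against VC were 271 up and 1815 down, in place of 338 up and 227 down with TMM scaling, and 10 of the 12 were then called in VE against VC and 10 in VE against UE. In VE against UE the calls over all genes were 1402 up and 2847 down, in place of 1970 and 1150.

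The fitted log2 fold changes in VE against VC ran from 2.07 to 7.70 with a median of 2.66, beside a median of 0.00 over all genes. Cluster-20123.24062 stood at 2.42 (SE 0.24, adjusted p = 0.00194), Cluster-20123.24061 at 2.59 (SE 0.28, adjusted p = 0.0027) and Cluster-20123.19827 at 2.72 (SE 0.33, adjusted p = 0.00481) in edgeR, and these 3 were called under every alternative run. The 3 not called were Cluster-20123.54734 (3.15, SE 0.69, adjusted p = 0.0642), Cluster-20123.52346 (2.81, SE 0.71, adjusted p = 0.103) and Cluster-20123.15879 (2.33, SE 0.78, adjusted p = 0.22). With VE1, VE2, VC2 or VC3 left out the 9 calls became 3, and with VE3 left out 4. Over all genes, the 338 higher calls likewise became 115, 62, 58 and 104 in the first 4 of these fits. Without VE3 they became 113. With the replicate number as a block, Cluster-20123.54734 was called (adjusted p = 0.005 in edgeR), and Cluster-20123.53129 (adjusted p = 0.0548) and Cluster-20123.62570 (adjusted p = 0.0613) were not.

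In VE against UE the fold changes ran from 1.91 to 4.17 with a median of 2.99, beside a median of -0.04 over all genes. Cluster-20123.15879 had the highest, at 4.17 (SE 0.88, adjusted p = 0.0228 in edgeR), followed by Cluster-20123.50097 at 3.63 (SE 0.62, adjusted p = 0.0114) and Cluster-55508.0 at 3.59 (SE 0.86, adjusted p = 0.0377). Not called were Cluster-20123.23623 (2.21, adjusted p = 0.179) and Cluster-20123.52346 (1.91, SE 0.68, adjusted p = 0.134). The count of 10 was 6 without VE1, VE2 or UE2 and 5 without UE1 or UE3. Over all genes, the 1970 higher calls became 583, 684 and 1112 without VE1, VE2 and UE2. Without UE1 and UE3 they became 557 and 485.

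**Figure D4:**
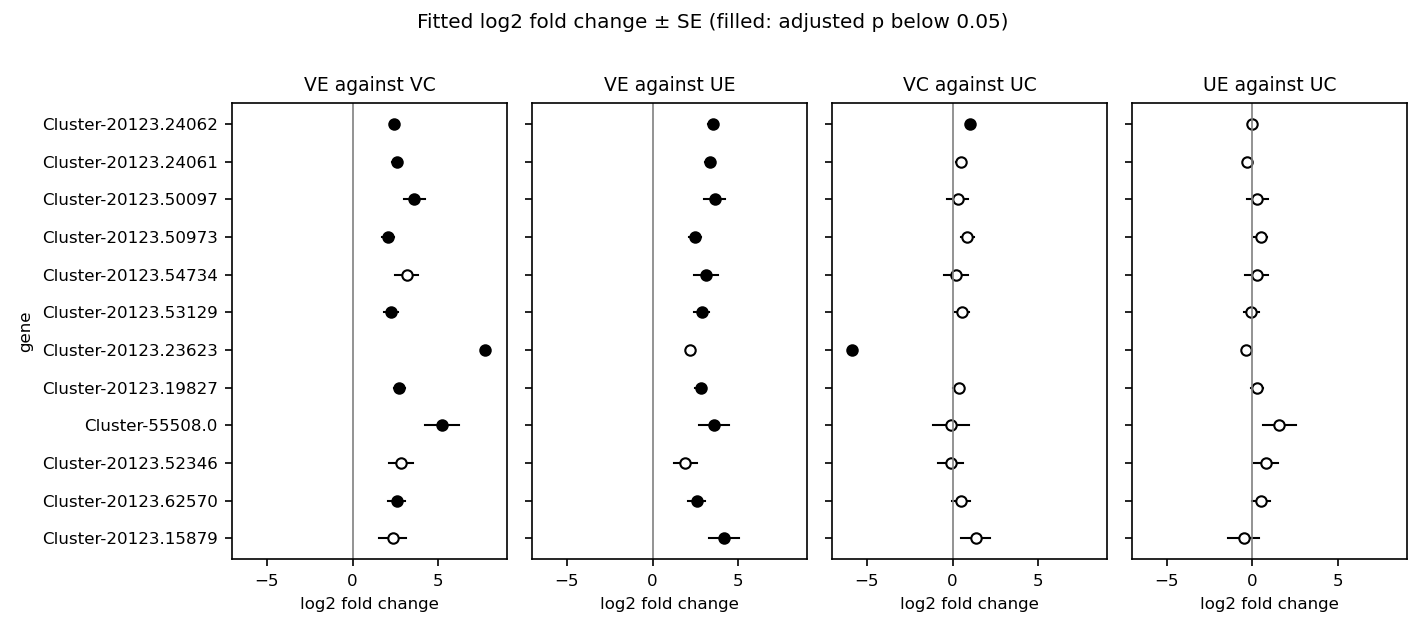
Points give the edgeR log2 fold change (x axis) of each of the 12 genes (y axis) in 4 contrasts, with lines for ± 1 SE and filled points for an adjusted p below 0.05. No SE is drawn for Cluster-20123.23623, which had 4 counts over VC after rounding. Cluster-55508.0 and Cluster-20123.15879 also had a library at 0 counts, and their SE are drawn. All points lie above 0 against VC and UE, where the choice of genes placed them, while in UE against UC they lie between -0.50 and 1.57 with 0 filled.

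In the leaf centre, variegated and unvariegated libraries were compared to see whether the genes also differed where they were low. The selection used VC and UC only as a ceiling and in the step on genes raised in both variegated zones, so the direction of this contrast was largely free. The median log2 fold change in VC against UC was 0.41, beside -0.04 over all genes, with 9 of 12 positive. In edgeR 1 gene was higher in VC, beside 2.67% of all genes, and 1 lower, beside 2.43%. Cluster-20123.24062 was higher, at 52.1 ± 8.62 CPM over VC and 26.9 ± 7.45 CPM over UC (SD, n = 3). The fitted change was 1.04 (SE 0.24) on the log2 scale, with an adjusted p of 0.0305 by edgeR. The call was lost without VC1, VC2, UC1 or UC3, and with only the 6 libraries compared. Over all alternatives the log2 fold change lay between 0.89 and 1.25 and the adjusted p between 8.57e-05 and 0.12.

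Cluster-20123.23623 was lower, at 0.0768 ± 0.0954 CPM over VC and 5.44 ± 1.73 CPM over UC (SD, n = 3), a fitted log2 change of -5.88 with an adjusted p of 0.0313 by edgeR. Its call was lost without VE2, with no low-count filter, and without any 1 of the VC or UC libraries (adjusted p between 6.94e-05 and 0.153 over all alternatives). Among all genes, the 1437 lower calls became 935 without VE2 and 1155 of 179217 with no low-count filter. Without VC1, VC2 or VC3 they became 418, 288 and 1883, and without UC1, UC2 or UC3 629, 572 and 689. The fitted log2 change of Cluster-20123.23623 rests on 4 counts over VC and ran from -7.19 without VC1 to -2.47 on log2(FPKM + 1). Cluster-20123.50973, at 0.87 (SE 0.36, adjusted p = 0.185 in edgeR), and Cluster-20123.15879, at 1.35 (SE 0.83, adjusted p = 0.384), did not pass. Only for Cluster-20123.24062 did the 3 VC libraries all exceed the 3 UC libraries, and only for Cluster-20123.23623 did they all fall below, beside 12.2% and 14.3% of all genes.

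The zones of unvariegated leaves were compared because the selection treated UE and UC alike. In UE against UC 0 of the 12 genes were called by edgeR, beside 0% of all genes higher and 0.00169% lower. None had an unadjusted p below 0.05, and DESeq2 and limma on log2 FPKM also called 0. Over all genes, DESeq2 called 50 higher and 58 lower. The median log2 fold change was 0.26, beside 0.00 over all genes, with 7 of 12 positive. In 0 of the 12 genes did the 3 UE libraries lie wholly above or below the 3 UC libraries, beside 2.7% and 8.31% of all genes. Cluster-20123.24062 averaged 24.1 ± 4.21 CPM in UE and 26.9 ± 7.45 CPM in UC (SD, n = 3; log2 fold change -0.03, SE 0.24). The widest difference, in Cluster-55508.0, was 1.57 (SE 0.96, adjusted p = 0.987 in edgeR), from 29 counts over the UE libraries and 10 over the UC libraries.

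The unit changed the zone ratio of the 2 shortest genes. Effective lengths derived from the deposited counts and FPKM were longer in UC: for Cluster-20123.54734 the median was 18.4 bases in UC and 9.25 bases in the other groups, and for Cluster-20123.62570 it was 76.1 and 61.4 bases. In Cluster-20123.54734 the mean in UE was 1.07 times that in UC by CPM and 2.06 times by FPKM. In Cluster-20123.62570 it was 1.35 times by CPM and 1.67 times by FPKM. For the other 10 genes the FPKM ratio was between 1 and 1.07 times the CPM ratio.

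**Figure D5:**
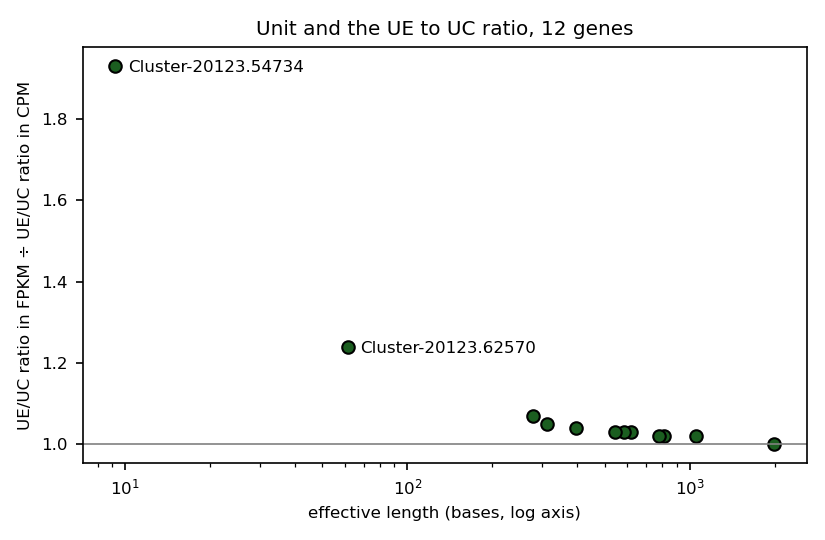
For each of the 12 genes, the UE to UC ratio of mean FPKM is divided by the UE to UC ratio of mean CPM (y axis) and plotted against effective length in bases (x axis, log scale). The quotient is 1.93 for Cluster-20123.54734 at 9.25 bases and 1.24 for Cluster-20123.62570 at 61.4 bases, and at most 1.07 for the 10 longer genes.

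Several properties were set beside those of the 25426 genes with at least 2 CPM in every VE library. Length and whole counts were not used by the selection. The levels outside VE were used as its ceiling, and the lowest VE library for its fold and minimum. The median effective length was 565 bases in the 12 genes and 1147 bases in the 25426, and 2 of 12 genes were shorter than 100 bases, against 1.35%. At least 1 count that was not whole occurred in 3 of 12 genes, Cluster-20123.23623, Cluster-20123.19827 and Cluster-20123.52346, against 77.1%. VE1 was the highest VE library in 8 of 12 genes, against 28.1%. The first replicate was also the highest in 9 of 12 genes within VC, against 27.4%, in 6 of 12 within UE, against 24.4%, and in 3 of 12 within UC, against 37.2%. A VC library was the highest outside VE in 7 of 12 genes, against 44.6%, and in 8 of 12 genes the VC mean exceeded both unvariegated means, against 46.2%. These shares are a description, and the part of VE1, of the other first replicates or of length in the results was not tested.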

How the data were processed

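Polyadenylated RNA from 12 libraries was analysed, grouped and numbered by the sample titles. The authors deposited expected counts and FPKM values for 185746 genes; CASAVA 1.8, Bowtie2 and RSEM appear in the submitters' processing notes, while assembler, reference and the other tool versions are not given in the sources used here. Of the deposited expected counts 21.3% were not whole, and genes that share reads are uncertain as separate units. No strand-marking step is described.

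CPM in the text divide counts by library totals. For tests, counts were rounded, genes filtered with filterByExpr (minimum count 10, total 15) and fitted with edgeR 4.0.16 (R 4.3.3, limma 3.58.1): TMM, estimateDisp, robust glmQLFit with 4 group means over 12 libraries, glmQLFTest, and Benjamini-Hochberg adjusted p below 0.05 over 59225 genes. Each SE equals the size of the log2 change over the root of its F statistic, and none is given for Cluster-20123.23623. The fit was tested on simulated data. Replicates differed beyond sampling noise (chi-square per degree of freedom 9.19 to 30.4).

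The 12 genes and all settings were chosen with earlier results of these data known. Genes were named by highest VE level (8), VE ratio (up to 8 of the remaining members), distance to the limit (3 inside, 3 outside), calls in UE against UC and VC against UC (up to 4 per direction), spread within VE (3) and level in the other 9 libraries (3), which covered all 12; other identifiers named are neighbours of members. Alternatives were other scalings, filters and limits, DESeq2 1.42.0, limma on log2 FPKM plus 1 or 0.1, a replicate block, 6 libraries only, and each library left out.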

Additional observations from a re-analysis of the deposited data

Results flagged for a closer look

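The difference between the zone differences of variegated and unvariegated leaves passed the test for Cluster-20123.24062 and Cluster-20123.24061. The log2 values were 2.45 (SE 0.33, adjusted p = 0.0295) and 2.89 (SE 0.39, adjusted p = 0.0289), both by the quasi-likelihood test of edgeR. In both genes all 3 VE libraries lay above all 3 VC libraries, whereas UE and UC overlapped. The genes had been chosen for high VE levels, so these values are not independent support for that difference. Both calls were lost without VE1, VE2, VE3, VC2, UE1, UE3, UC1 or UC2, and that of Cluster-20123.24061 also without VC3, while the log2 values stayed between 2.21 and 2.61 and between 2.49 and 3.14 over all alternatives (adjusted p up to 0.105 and 0.109). Among all genes, the 36 higher calls became 9 to 17 in the fits that lost both, and 25 without VC3.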

How the results depend on the processing

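All 12 genes met the selection on TMM-scaled CPM, on FPKM and at 1.5 times, where it held for 21, 18 and 30 genes. At 3 times 5 genes were left, all members. With a library left out, which only loosens it, the selection held for 12 to 32 genes, most without VE3 (32) and VC1 (31). In VE against VC, 9 members were called, 12 by DESeq2, 12 on log2(FPKM + 1), 11 on log2(FPKM + 0.1), 10 on library totals, 5 with no low-count filter, 5 with only the 6 libraries compared and 3 to 8 with a library left out. Over all genes, the 338 higher calls became, in that order, 1248, 282, 299, 271, 507 of 179217, 136 of 49622 and 58 to 377. In VE against UE, 10 were called, and 5 to 11 with a library left out, beside 1970 and 485 to 2387 of all genes higher. In VC against UC, 2 were called, 1 without filtering, 1 in the fit of those 6 libraries and 0 to 2 with a library left out. Over all genes, 1582 were higher and 1437 lower, 2215 and 1155 of 179217 without filtering and 554 and 550 of 51070 in that fit. With a library left out they were 345 to 2573 and 288 to 1883. The interaction was called for 2 members, for 6 by DESeq2 and for 0 to 3 with a library left out. Over all genes, 36, 381 and 9 to 45 were called higher. In UE against UC 0 members were called under every alternative run. The cause of these changes was not tested.

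No log2 fold change with VE changed direction under any alternative, which the choice of genes had largely fixed. With no low-count filter, Cluster-55508.0 turned to 0.03 in VC against UC and Cluster-20123.24062 to 0.04 in UE against UC. With a library left out, values that had not passed the test also changed sign. Their ranges in VC against UC were -0.02 to 0.76 for Cluster-20123.50097, -0.54 to 1.28 for Cluster-20123.54734 and -0.13 to 0.93 for Cluster-20123.62570. They were -1.63 to 0.35 for Cluster-20123.52346 and -0.70 to 0.61 for Cluster-55508.0. In UE against UC they were -0.18 to 0.18 for Cluster-20123.24062, -0.39 to 1.31 for Cluster-20123.54734 and -1.10 to 0.20 for Cluster-20123.23623. They were -0.36 to 0.43 for Cluster-20123.53129 and -1.01 to 0.10 for Cluster-20123.15879.

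With the replicate number as a block, 8 members were called in VE against VC, 10 in VE against UE, 2 in VC against UC, 0 in UE against UC and 2 in the interaction. A block over the 6 VE and VC libraries alone, chosen after seeing the data, gave 8, with Cluster-20123.54734 called (adjusted p = 0.0478 in edgeR) and Cluster-55508.0 (adjusted p = 0.0998) and Cluster-20123.62570 (adjusted p = 0.1) not. There, 122 of 49622 genes were called higher. Deviations of same-numbered VE and VC libraries from their group means had correlations across genes of 0.33, 0.11 and 0.46 at a mean of at least 10 CPM but 0.11, 0.02 and 0.13 over all genes tested. UE and UC had 0.41, 0.31 and -0.03 at 10 CPM. Each VE and VC library correlated best with its own number, a hint from the data and not the design, and pairs were not assumed. Whether depth limits the calls of the 4 members of lowest level was not tested.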
